A study of Mus musculus with 4 samples.

Results

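The genes described here encode voltage-gated sodium, calcium and potassium channels, the other potassium channels and the HCN pacemaker channels, with their accessory subunits. They were chosen by name, as gene symbols that begin with Kcn, Scn and a digit, Cacn, or Hcn and a digit, leaving out Kcnj8, a pericyte marker, and Kcnq1ot1, a long noncoding RNA. A member also had to have at least 50 unique molecular identifiers (UMIs, each a counted transcript) over the 4 libraries. Of 141 matching symbols, 88 met that limit, among 15787 genes of the 32285 in the table that did. No UMI was found for 4 symbols, and 49 had 1 to 49. The sodium family has 11 members, the calcium family 18, the potassium family 56 and the HCN family 3, and 62 members had at least 200 UMIs. The potassium family includes Kcnd3os, a transcript opposite Kcnd3 and not a channel. Near the limit, Cacna1b was inside with 55 UMIs and Cacng4 outside with 49.

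In the working ventricular myocyte, sodium channels carry the fast upstroke of the action potential, L-type calcium channels let in the calcium that starts contraction, and several potassium currents repolarise the cell. In the mouse ventricle the early repolarisation is fast and is carried mainly by transient outward and rapidly activating Kv currents, while inward rectifiers hold the resting potential. Pore subunits form the channel, and accessory subunits alter its gating and its number at the membrane. Loss of repolarising current after infarction is a known feature of remodelled myocardium.

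The study asked how the left ventricle of young and aged mice responds to ischemia and reperfusion (I/R). All mice were male C57BL/6J wild types, aged 3 to 5 months (young) or 24 to 26 months (aged). The I/R mice had 45 minutes of ischemia by ligation of the left anterior descending artery and 24 h of reperfusion, and the controls are called sham here, although the labels also describe them as healthy and unaltered. Each of the 4 conditions, sham or I/R at either age, is 1 library from a droplet 3' kit, and the number of mice in a library is not given in the sources used here. Values for the 4 libraries run throughout from young sham and young I/R to the aged sham library and the aged I/R library. I/R over sham is called the young pair or the aged pair, aged over young sham the sham comparison, and aged over young I/R the I/R comparison. With 1 library per condition there is no test and no replicate check, and the 95% intervals cover counting error only.

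The libraries held 25836175, 39673199, 41356670 and 66767829 UMIs, so the level of a gene is given as UMIs per 1000000 UMIs of the library (counts per 1000000, CPM), summed over all barcodes. The study describes single cells, while the labels give nuclear RNA as the molecule. The markers of cardiomyocytes, endothelial cells, fibroblasts and macrophages were present in every library, but their UMIs were spread over barcodes almost as if drawn at random, with a variance of 2.40, 1.25, 1.35 and 1.74 times the Poisson value for cardiomyocyte markers and 1.26, 1.04, 1.07 and 1.09 times for endothelial markers. The sums are therefore read as bulk samples, in which fewer cells of a type and less RNA per cell cannot be told apart. Any pair of libraries shared 2366 to 2843 barcodes, or 2.41% to 2.83% of a library. Young I/R stood apart: it had the lowest CPM of the 4 libraries for 63.0% of all tested genes, and for 57 of the 88 channel genes, or 64.8%. Young sham was the highest library for 41.5% of all tested genes and for 42 of the 88 channel genes, or 47.7%. It had a median of 244 UMIs per barcode, against 374 to 675 in the others. In it 28.4% of barcodes had at least 200 detected genes, against 55.2% to 98.8%. Ratios in the young pair thus set the library most often lowest against the one most often highest. The share of Gm42418, a transcript that overlaps ribosomal RNA, was 19.4% in young I/R, against 11.5% to 14.0% in the others. Malat1, a nuclear noncoding RNA, took 7.34%, 2.22%, 2.88% and 4.33% of the UMIs, lowest in young I/R as most channel genes were, and the mitochondrial genes took 10.0%, 14.1%, 15.6% and 9.98%. The part of these shares in the channel genes' ratios was not tested. In young I/R the 7 atrial markers summed to 1316 CPM, against 476 to 960.2 in the other 3.

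Because of this, each comparison is given on 2 scalings. The first divides by total UMIs, and the second, gene-wise scaling, sets the median ratio of 11881 genes with at least 50 UMIs in every library to no change. On total UMIs the median log2 ratio of all tested genes was -0.52 in the young pair, 0.09 in the aged pair, -0.14 in the sham comparison and 0.46 in the I/R comparison. Gene-wise scaling adds 0.43, -0.09, 0.14 and -0.38 to these log2 ratios. A gene was counted as higher or lower where its CPM differed by at least 1.5-fold and the interval of the ratio excluded no change.

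In young mice most channel genes were lower after I/R. On total UMIs 48 of the 88 were lower than in sham, where 43.2% of all tested genes were, and 4 were higher, where 5.28% of all genes were. After gene-wise scaling 31 were lower against 23.7% of all genes, and 9 were higher against 15.5%. In aged mice few differed: 9 were lower after I/R against 8.04% of all genes, and 8 were higher against 14.7%, or 12 against 10.9% and 5 against 11.4% after gene-wise scaling. The share of channel genes that were lower was thus 54.5% in the young pair and 10.2% in the aged pair. In the sham comparison 19 were lower in aged mice against 17.6% of all genes, and 10 were higher against 7.03%, or 14 against 11.8% and 15 against 10.8% after gene-wise scaling. In the I/R comparison 43 were higher in aged mice against 39.8% of all genes, and 3 were lower against 3.4%, or 18 against 19.2% and 7 against 11.9% after gene-wise scaling. On total UMIs the widest gaps between channel genes and all genes were for lower levels in the young pair (54.5% against 43.2%) and for higher levels in the I/R comparison (48.9% against 39.8%), and both comparisons use the young I/R library.

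The 3 main families differed in how they stood in young I/R. The summed sodium genes were at 294, 243, 273 and 300.5 CPM. The summed calcium genes were at 725, 415, 534 and 572 CPM, and the summed potassium genes at 834, 493, 713 and 695 CPM. In the young pair the log2 ratio was -0.27 (-0.32 to -0.23) for the sodium sum, -0.80 (-0.83 to -0.77) for the calcium sum and -0.76 (-0.79 to -0.73) for the potassium sum. After gene-wise scaling these became 0.16, -0.37 and -0.33, so that the sodium sum changed sign and the others did not. In the aged pair all 3 sums were within 0.14 of no change on the log2 scale of total UMIs. The HCN sum had log2 ratios of -0.34 in the young pair and -0.30 in the aged pair, the former with the opposite sign, 0.10, after gene-wise scaling.

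**Figure D1:**
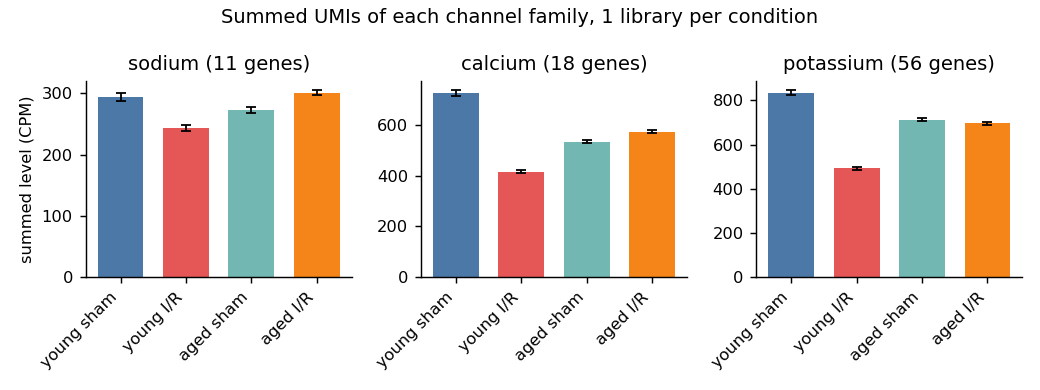
Summed level of the sodium, calcium and potassium channel genes in CPM (vertical axis, from 0, a scale of its own in each panel) in the 4 libraries, with 95% Poisson intervals as error bars. The calcium and potassium sums are lowest in young I/R, at 415 and 493 CPM, while the sodium sum there is 243 against 294 in young sham.

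Ratios of sums within a library need no scaling. UMIs of potassium channel genes per UMI of sodium channel genes were 2.84, 2.03, 2.61 and 2.31, and UMIs of calcium channel genes per sodium UMI were 2.46, 1.71, 1.96 and 1.91. Both were lowest in young I/R. From young sham to young I/R the potassium ratio moved by -0.49 (-0.54 to -0.43) and the calcium ratio by -0.53 (-0.58 to -0.48) on the log2 scale, while from aged sham to aged I/R they moved by -0.18 (-0.22 to -0.14) and -0.039 (-0.08 to 0.0018). Potassium UMIs per calcium UMI were 1.15, 1.19, 1.34 and 1.21, with the aged sham library highest.

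Scn7a, on chromosome 2 (66673425 to 66784914, minus strand, GRCm38), encodes a sodium channel pore that is gated by sodium rather than by voltage. It was at 77.2, 29.4, 67.6 and 56.0 CPM, lowest in young I/R. On the log2 scale it had -1.39 (-1.50 to -1.29) in the young pair, still beyond 1.5-fold after gene-wise scaling (-0.96), and -0.27 (-0.34 to -0.20) in the aged pair. The neuronal and skeletal muscle pores Scn4a, Scn2a and Scn10a were also lower in young I/R, with log2 ratios of -1.20 (-1.59 to -0.81), -1.43 (-2.10 to -0.79) and -1.30 (-2.01 to -0.61). Scn3a, a neuronal pore, was at 7.08, 5.72, 5.25 and 7.25 CPM, with -0.31 (-0.60 to -0.019) in the young pair, of opposite sign (0.13) after gene-wise scaling. Scn4b encodes a beta subunit, which adjusts gating and cell adhesion. It was at 13.2, 7.99, 13.3 and 12.3 CPM, with young I/R lowest and the other 3 libraries close together, and it had -0.72 (-0.95 to -0.50) in the young pair, -0.29 and short of 1.5-fold after gene-wise scaling, and -0.11 (-0.27 to 0.049) in the aged pair.

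Cacna1c, on chromosome 6 (118587240 to 119196418, minus strand), encodes the pore of the cardiac L-type calcium channel, and it supplied 45.5% of the UMIs of the calcium family. It was at 337, 149.7, 256 and 273 CPM. Young I/R was the lowest library, at 0.444 times young sham, a log2 ratio of -1.17 (-1.22 to -1.12) that remained beyond 1.5-fold after gene-wise scaling (-0.74). In the aged pair the log2 ratio was 0.092 (0.058 to 0.13). These values are over all barcodes, and in the few barcodes rich in cardiomyocyte markers, given below, young I/R was closer to young sham. The other L-type pores were also lower in young I/R on total UMIs, Cacna1d at 10.1, 4.99, 7.01 and 10.4 CPM and Cacna1s at 6.19, 3.63, 7.54 and 7.47 CPM, the latter short of 1.5-fold after gene-wise scaling (-0.34), but in the aged pair Cacna1d had a log2 ratio of 0.57 (0.37 to 0.78) and Cacna1s one of -0.014 (-0.22 to 0.20).

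The most counted beta and alpha2delta subunit genes of the calcium channel differed in young I/R. Cacnb2, whose product brings the pore to the membrane, was at 144, 49.0, 79.0 and 82.5 CPM, with young sham highest and young I/R lowest, -1.55 (-1.63 to -1.48) on the log2 scale in the young pair and -0.86 (-0.93 to -0.80) in the sham comparison. Cacna2d1, on chromosome 5 (15934691 to 16374511, plus strand), encodes the extracellular alpha2delta subunit and was at 164, 178, 129.9 and 149 CPM. It was highest in young I/R, although its log2 ratio there was small on total UMIs, 0.12 (0.065 to 0.18), and 0.55 after gene-wise scaling. UMIs of Cacna2d1 per UMI of Cacna1c were 0.485, 1.19, 0.508 and 0.545, so the ratio in young I/R was set apart from 3 libraries that lay close together. UMIs of Cacnb2 per UMI of Cacna1c were 0.427, 0.327, 0.309 and 0.303, with young sham highest. Cacnb1 differed in the aged pair instead, at 7.55, 6.65, 9.45 and 5.45 CPM, with a log2 ratio of -0.79 (-1.004 to -0.58).

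The T-type pores, which open at more negative voltages, were minor in UMIs. Cacna1g was at 12.0, 3.02, 7.23 and 5.81 CPM and had -1.99 (-2.31 to -1.68) on the log2 scale in the young pair, while Cacna1h, at 5.84, 3.81, 5.68 and 4.96 CPM, had -0.62 (-0.95 to -0.28), and -0.19 after gene-wise scaling, short of 1.5-fold. In the aged pair they had -0.32 (-0.54 to -0.093) and -0.20 (-0.44 to 0.051). Cacna1a, a P/Q-type pore best known from nerve terminals, was at 17.9, 4.99, 11.8 and 17.0 CPM, lowest in young I/R with -1.84 (-2.09 to -1.60) in the young pair and 0.53 (0.38 to 0.69) in the aged pair. Cacna1a and the T-type genes thus shared the direction of Cacna1c in the young pair, and of these only Cacna1a was above aged sham in aged I/R.

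**Figure D2:**
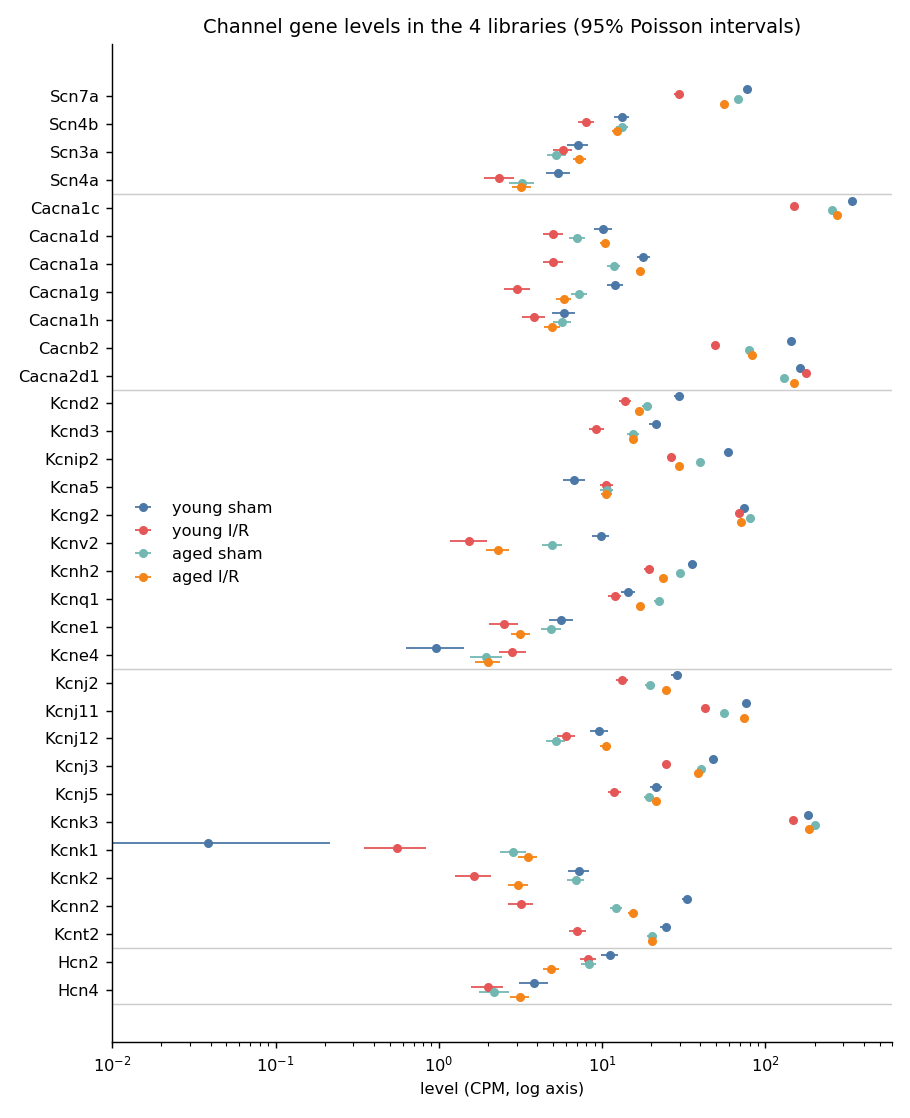
Level of 33 channel genes in CPM (horizontal log axis) in the 4 libraries, marked by colour, with 95% Poisson intervals, grouped by family. The red points of young I/R lie to the left for most genes, such as Cacna1c at 149.7 CPM and Kcnn2 at 3.18 CPM, but not for Cacna2d1 at 178 CPM or Kcna5 at 10.6 CPM, and Kcnk1 in young sham rests on 1 UMI.

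The pores and the accessory subunit of the fast transient outward current were lower together in young I/R. Kcnd2 was at 29.7, 13.8, 18.8 and 16.8 CPM, Kcnd3 at 21.2, 9.23, 15.5 and 15.5 CPM, and Kcnip2, the calcium-binding subunit that carries these pores to the membrane, at 58.9, 26.5, 40.0 and 29.7 CPM. Their log2 ratios in the young pair were -1.10 (-1.26 to -0.94), -1.20 (-1.40 to -1.01) and -1.15 (-1.27 to -1.04), all beyond 1.5-fold on both scalings. In the aged pair they were -0.16 (-0.29 to -0.028), -0.00034 (-0.14 to 0.14) and -0.43 (-0.52 to -0.33), none of them beyond 1.5-fold. UMIs of Kcnip2 per UMI of Kcnd2 and Kcnd3 combined were 1.16, 1.15, 1.17 and 0.920, level in 3 libraries and lowest in aged I/R. Kcnd3 and Kcnd3os lie on opposite strands with overlapping exons, and whether counting used the strand is not stated, so the 238 UMIs of Kcnd3os and the 2588 of Kcnd3 cannot be told apart with certainty. Kcna4, a slower transient outward pore, was at 2.90, 2.02, 2.25 and 2.92 CPM and had -0.53 (-0.998 to -0.052) on the log2 scale in the young pair and -0.092 after gene-wise scaling.

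The promoters of Kcnd2 and Kcnip2 are shown because UMIs of Kcnip2 per UMI of Kcnd2 and Kcnd3 combined were level in 3 libraries. The promoter of Kcnd3 is not shown. That of Cacna2d1 is shown because it was not lower where its pore gene was, and that of Kcna5, described next, because it was higher. The promoters shown are the windows of RefSeq gene starts on GRCm38.p6, 250 bases before to 50 bases after the start, 5′ to 3′ on the gene's strand, and 63 of the 88 members had such a window. Searched on both strands were the TATA box (TATAAA), the GC box (GGGCGG), the E-box CACGTG, the GATA site AGATAA and the MEF2 element, and capitals mark every match, which was a GC box in each case. A GC box was found in 1 place for Kcnd2, in 2 for Kcnip2, in 7 for Cacna2d1, some sharing a base, and in none for Kcna5, while 35.7% of all 32851 promoters hold one. The share of all promoters was 13.6% for the TATA box, 7.15% for the E-box, 11.2% for the GATA site and 3.19% for the MEF2 element, none of which was in these 4 windows.
Kcnd2 promoter, chr6:21215096-21215395, plus strand: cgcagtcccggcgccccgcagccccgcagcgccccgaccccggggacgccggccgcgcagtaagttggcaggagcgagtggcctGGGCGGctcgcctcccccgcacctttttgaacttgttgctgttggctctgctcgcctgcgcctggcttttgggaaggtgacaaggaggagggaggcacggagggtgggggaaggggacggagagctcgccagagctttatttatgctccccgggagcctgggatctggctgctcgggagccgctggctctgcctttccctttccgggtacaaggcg
Kcnip2 promoter, chr19:45816014-45816313, minus strand: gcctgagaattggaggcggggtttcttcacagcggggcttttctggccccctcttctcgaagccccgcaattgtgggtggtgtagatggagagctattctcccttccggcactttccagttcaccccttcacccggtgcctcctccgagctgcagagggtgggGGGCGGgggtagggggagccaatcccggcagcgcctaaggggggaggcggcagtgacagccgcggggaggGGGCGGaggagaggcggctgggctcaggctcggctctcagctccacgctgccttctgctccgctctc
Cacna2d1 promoter, chr5:15934441-15934740, plus strand: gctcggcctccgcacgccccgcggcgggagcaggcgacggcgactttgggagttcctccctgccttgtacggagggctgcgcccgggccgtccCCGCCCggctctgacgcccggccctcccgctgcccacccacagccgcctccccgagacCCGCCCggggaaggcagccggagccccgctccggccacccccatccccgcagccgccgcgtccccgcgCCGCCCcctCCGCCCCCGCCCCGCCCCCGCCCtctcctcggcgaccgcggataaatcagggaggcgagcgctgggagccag
Kcna5 promoter, chr6:126535506-126535805, minus strand: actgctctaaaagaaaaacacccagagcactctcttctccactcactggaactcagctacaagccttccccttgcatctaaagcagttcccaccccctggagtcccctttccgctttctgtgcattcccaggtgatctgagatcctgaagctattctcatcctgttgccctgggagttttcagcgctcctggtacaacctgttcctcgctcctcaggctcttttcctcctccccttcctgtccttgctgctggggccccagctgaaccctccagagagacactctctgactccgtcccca

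Kcna5, which carries an ultrarapid current, was at 6.73, 10.6, 10.7 and 10.6 CPM, with young sham lowest and the other 3 libraries level. It had 0.66 (0.40 to 0.92) on the log2 scale in the young pair and 0.67 (0.41 to 0.93) in the sham comparison, and was 1 of the 4 members higher in young I/R.

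Silent Kv subunits form no channel of their own and modify other Kv pores. Kcng2, which held 94.5% of the UMIs of this group, was at 74.4, 68.7, 79.9 and 70.4 CPM, nearly level, with -0.11 (-0.20 to -0.028) in the young pair and the opposite sign, 0.32, after gene-wise scaling. Kcnv2 was at 9.79, 1.54, 4.96 and 2.31 CPM, with log2 ratios of -2.67 (-3.10 to -2.26) in the young pair, -1.10 (-1.41 to -0.80) in the aged pair and -0.98 (-1.26 to -0.71) in the sham comparison. It was among the 3 lowest members with at least 200 UMIs in each of these comparisons, and in both I/R libraries it was below the sham library of the same age.

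The delayed rectifier pores Kcnh2 and Kcnq1, both known from inherited long-QT syndrome, were below sham on total UMIs in both ages. Kcnh2, the ERG pore, was at 35.8, 19.3, 29.9 and 23.6 CPM, with -0.89 (-1.03 to -0.75) in the young pair, -0.45 and short of 1.5-fold after gene-wise scaling, and -0.34 (-0.45 to -0.23) in the aged pair. Kcnq1 was at 14.4, 11.9, 22.3 and 17.1 CPM and highest in aged sham, with -0.27 (-0.47 to -0.073) in the young pair, of opposite sign (0.16) after gene-wise scaling, and 0.63 (0.45 to 0.80) in the sham comparison. Its exons overlap those of Kcnq1ot1 on the opposite strand, which had 42144 UMIs against 2910, so reads of one can count for the other where strand was not used, and its values are uncertain. Kcne1, the small subunit that slows the Kcnq1 channel, was at 5.61, 2.50, 4.86 and 3.16 CPM, with -1.17 (-1.55 to -0.79) in the young pair and -0.62 (-0.91 to -0.34) in the aged pair. Kcne4, an inhibitory subunit of the same family, went the other way in the young pair, at 0.968, 2.82, 1.96 and 1.99 CPM with 1.54 (0.91 to 2.23), and in the aged pair it had 0.024 (-0.38 to 0.44).

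Of the 9 inward rectifiers, which pass potassium near rest, 7 were lower in young I/R on total UMIs and 2 after gene-wise scaling, where 43.2% and 23.7% of all genes were. Kcnj2, a main pore of the resting current, was at 28.6, 13.2, 19.7 and 24.7 CPM, with -1.11 (-1.28 to -0.95) in the young pair and 0.33 (0.20 to 0.45) in the aged pair. Kcnj11, the pore of the ATP-sensitive channel that opens in metabolic stress, was at 76.5, 42.4, 56.0 and 73.6 CPM, with -0.85 (-0.95 to -0.76) and 0.40 (0.32 to 0.47), the former short of 1.5-fold after gene-wise scaling (-0.42). Both were thus below sham in young I/R and above sham in aged I/R, and the UMIs of Kcnj11 per UMI of Kcnj2 were 2.68, 3.20, 2.84 and 2.98. Kcnj12, a second pore of the resting current, was at 9.56, 6.05, 5.22 and 10.5 CPM, and in aged I/R it was 2.01-fold aged sham, among the 3 highest ratios in the aged pair of members with at least 200 UMIs. Kcnj15 was at the other end there, at 1.82, 1.01, 2.42 and 0.779 CPM with -1.63 (-2.15 to -1.14).

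Kcnj3 and Kcnj5 encode the acetylcholine-activated channel, which is known mainly from the atria and the pacemaker tissue. They were at 48.0, 24.7, 40.1 and 38.8 and 21.5, 11.8, 19.4 and 21.3 CPM. Both were lowest in young I/R, with log2 ratios of -0.96 (-1.08 to -0.84) and -0.86 (-1.04 to -0.68) in the young pair. After gene-wise scaling they had -0.53 and -0.42, both short of 1.5-fold. The sum of the 7 atrial markers, most of it Nppa, had a log2 ratio of 1.47 in the young pair on total UMIs. UMIs of Kcnj5 per UMI of Kcnj3 were 0.448, 0.480, 0.484 and 0.550. The intervals of neighbouring values overlap, and those of young sham and aged I/R do not.

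The tandem-pore-domain genes, whose channels leak potassium at rest, lay on both sides of no change in the young pair. Kcnk3, with 93.2% of the UMIs of the group, was at 183, 148, 202 and 184 CPM, with -0.31 (-0.36 to -0.25) in the young pair and the opposite sign, 0.13, after gene-wise scaling. Its exons overlap those of Gm9899 on the opposite strand, which had 2052 UMIs against 31255. Kcnk2, a stretch-sensitive channel, was at 7.20, 1.64, 6.89 and 3.07 CPM and lower after I/R in both ages, with -2.14 (-2.57 to -1.72) and -1.17 (-1.43 to -0.90). Kcnk1 had 1, 22, 118 and 234 UMIs, and its CPM in young I/R was 14.3-fold that of young sham, with a counting interval on the log2 scale of 1.21 to 9.21. In aged I/R Kcnk1 was at 6.32-fold young I/R, so it was low in both young libraries and higher in both aged ones.

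The calcium- and sodium-activated potassium channels had the lowest ratio of any group sum in the young pair, at 74.5, 19.9, 46.9 and 50.2 CPM with a log2 ratio of -1.91 (-2.03 to -1.79). Kcnn2, a small-conductance calcium-activated pore, was at 33.0, 3.18, 12.1 and 15.4 CPM. Its young I/R level was the lowest by a wide margin, with log2 ratios of -3.38 (-3.66 to -3.10) in the young pair, 0.34 (0.19 to 0.50) in the aged pair and -1.44 (-1.60 to -1.28) in the sham comparison. The ratio in the young pair was the lowest of all members with at least 200 UMIs, and per UMI of Kcnk3 there were 0.180, 0.0214, 0.0601 and 0.0836 UMIs of Kcnn2. Kcnt2, a sodium-activated pore, was at 24.6, 7.06, 20.1 and 20.3 CPM with -1.80 (-2.01 to -1.60) in the young pair and 0.0098 (-0.12 to 0.14) in the aged pair. Kcnma1, the large-conductance pore best known from smooth muscle, had 152 UMIs in all and lay at 0.658, 0.479, 1.09 and 1.06 CPM, with intervals of its log2 ratios that include 0 in the young pair and in the aged pair.

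The HCN genes encode the pacemaker current. Hcn2 was at 11.1, 8.22, 8.27 and 4.85 CPM and lowest in aged I/R, with -0.77 (-0.99 to -0.55) in the aged pair and -0.44 (-0.67 to -0.21) in the young pair. After gene-wise scaling its log2 ratio in the young pair was -0.0063. Hcn4, the main pacemaker gene of the sinoatrial node, was at 3.83, 1.99, 2.18 and 3.13 CPM, with -0.94 (-1.39 to -0.50) in the young pair, -0.51 and short of 1.5-fold after gene-wise scaling, and 0.52 (0.16 to 0.90) in the aged pair. On total UMIs both were below sham in young I/R, and in aged I/R they lay on opposite sides of sham.

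**Figure D3:**
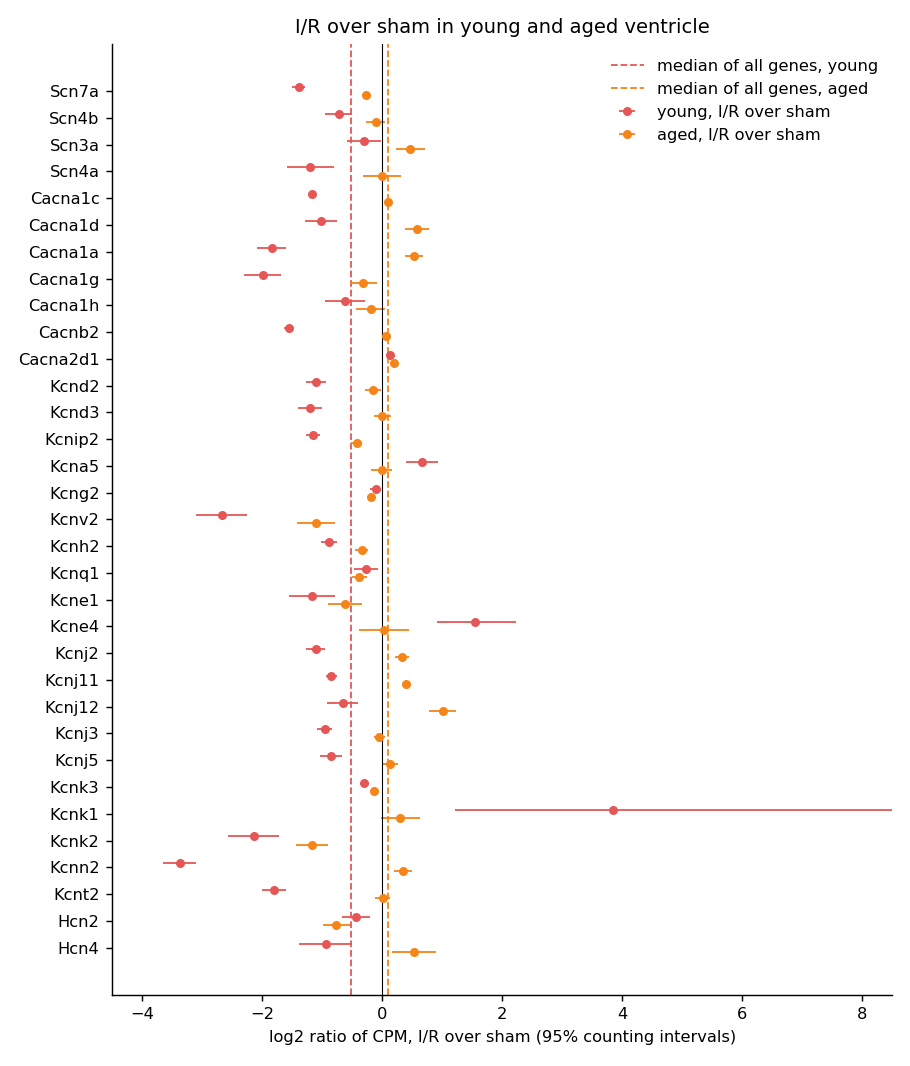
Log2 ratio of CPM, I/R over sham (horizontal axis), for 33 channel genes in young mice (red) and aged mice (orange), with 95% counting intervals and dashed lines at the median of all tested genes. Most red points lie left of 0 and the orange points near it, with Kcnn2 at -3.38 and 0.34 and Kcna5 at 0.66 and -0.0093, and the interval of Kcnk1 in young mice runs past the edge of the plot.

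The responses of the channel genes to I/R in young and in aged mice were set side by side, which is possible without shared libraries. Over the 88 members Pearson's r between the log2 ratios was -0.09 and Spearman's rho -0.06, and over the 62 members with at least 200 UMIs they were 0.11 and 0.03, as a description across genes that share 4 libraries. On total UMIs 37 members were below sham in both ages, 12 above in both, 34 below in young and above in aged mice, and 5 the reverse. These 4 counts are not given for all genes, so they are not read as a trait of the members. In the young pair 71 of 88 members and 12073 of 15768 tested genes were below sham. In the aged pair 46 of 88 members and 9096 of 15787 tested genes were above it. The log2 ratio in aged mice minus that in young mice was above 0 for 68 of 88 members, or 77.3%, with a median of 0.77, and for 73.7% of all tested genes, with a median of 0.60. By family this difference was 0.41 (0.36 to 0.47) for the sodium sum, 0.91 (0.87 to 0.94) for the calcium sum and 0.72 (0.69 to 0.76) for the potassium sum. After gene-wise scaling it was -0.11, 0.38 and 0.20, so the calcium and potassium sums kept its sign and the sodium sum did not.

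In the sham comparison Kcnn2 and Kcnv2 were among the 3 lowest members with at least 200 UMIs, and Kcnk1 and Kcne4 among the 3 highest. Kcnc1, a fast Kv pore, was at 1.20, 0.882, 2.13 and 3.22 CPM and highest in aged I/R, with 1.87 (1.35 to 2.43) over young I/R. Kcnj12 had its lowest level in aged sham, with -0.87 (-1.14 to -0.60) there.

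**Figure D4:**
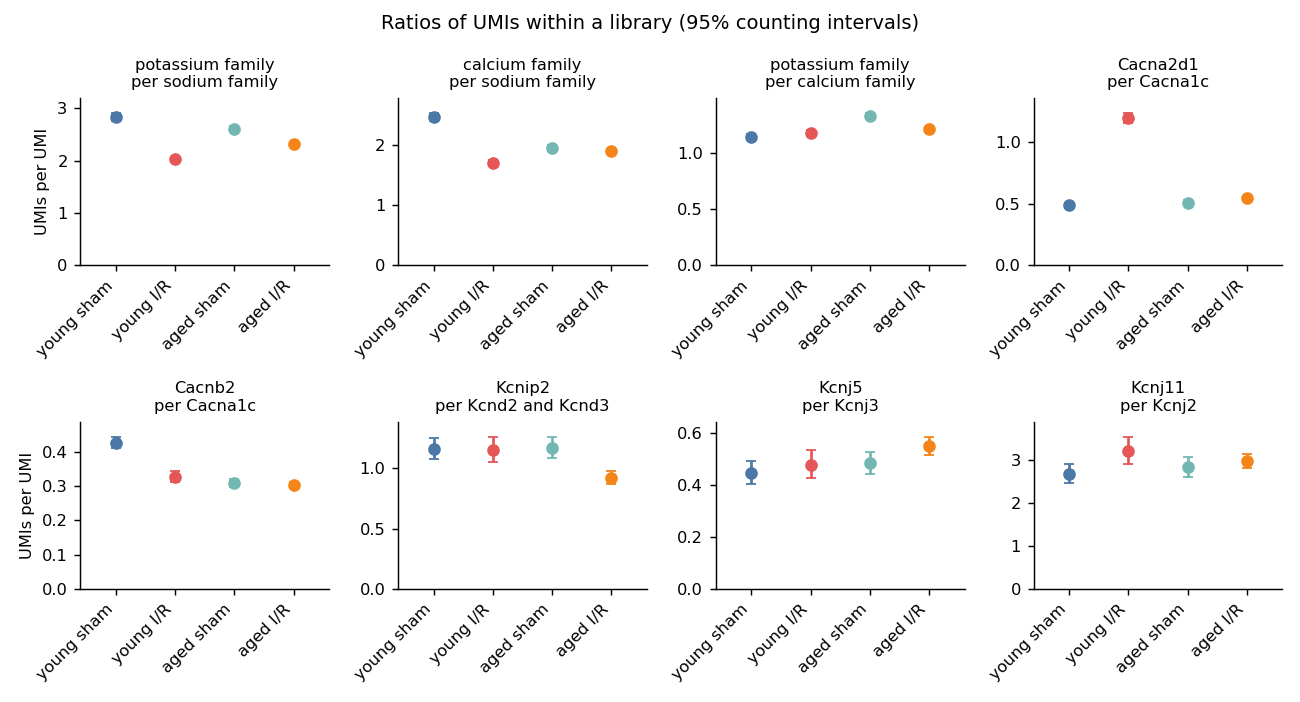
UMIs of 1 gene or family per UMI of a partner within the same library (vertical axis, from 0), for 8 pairs in the 4 libraries, with 95% counting intervals. Cacna2d1 per Cacna1c reaches 1.19 in young I/R against 0.485 in young sham, while Kcnip2 per Kcnd2 and Kcnd3 is 1.16 and 1.15 in those libraries.

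Channel genes are long, and gene length moved with the young comparison. The 88 members span a median of 53.5 kb in the GENCODE vM21 annotation, against 21.8 kb for all tested genes with a span, and 32 of them, or 36.4%, span at least 100 kb against 13.2%. Over all genes the median log2 ratio in the young pair was -0.39 for genes under 10 kb, -0.43 from 10 to 30 kb, -0.57 from 30 to 100 kb and -0.75 from 100 kb. For the members in these classes the medians were -0.93, -0.87, -0.62 and -1.06. In the class from 100 kb 19 of 32 members were lower, or close to the 58.5% of all genes of that length, and in the class from 10 to 30 kb 13 of 22 were, against 38.8%. From 30 to 100 kb 11 of 24 were lower against 47.0%, and under 10 kb 5 of 10 against 37.3%. In the aged pair the medians over all genes ran from -0.02 under 10 kb to 0.23 from 100 kb. The part of gene length in the members' ratios was not tested.

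**Figure D5:**
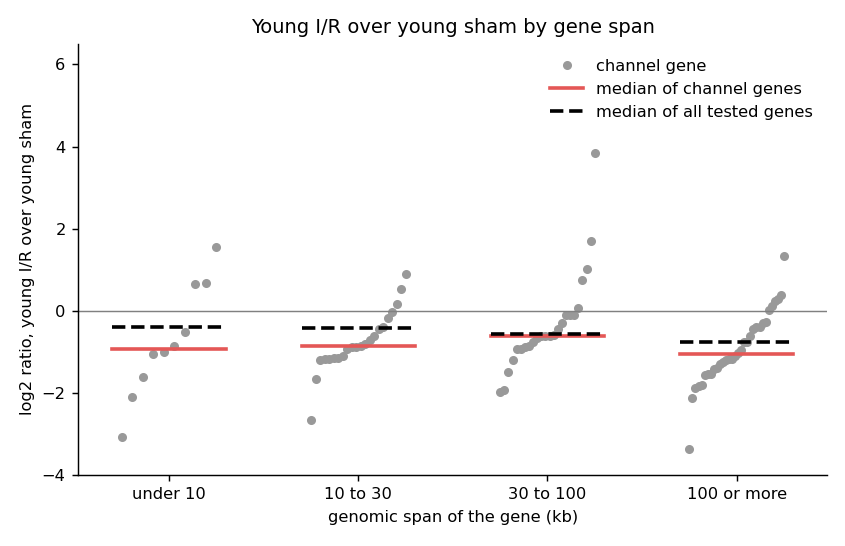
Log2 ratio in the young pair, I/R over sham (vertical axis), for the 88 channel genes (grey points) in 4 classes of genomic span in kb (horizontal axis), with the median of the channel genes in red and of all tested genes dashed. The medians of the channel genes lie below those of all genes in each class, at -1.06 against -0.75 from 100 kb.

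Marker levels were set beside the channel genes, with lists written for this work. The 18 cardiomyocyte markers summed to 105921, 94589, 99621 and 112646 CPM, with a log2 ratio of -0.16 in the young pair and 0.18 in the aged pair. The 18 fibroblast markers had -0.36 and -0.41, the 18 endothelial markers -0.14 and -0.08, and the 18 macrophage markers -0.46 and -0.13. The 14 mural markers had -0.42 and -0.07, the 8 glial markers -0.57 and -0.19, and the 8 neutrophil markers 2.91 and 2.08. The 7 atrial markers, a sum made up mostly of Nppa, had 1.47 and -0.997. Each marker had UMIs in every library except Bmp10, an atrial marker at 0 in young I/R. As sums, all of these lists except those of neutrophils and atria moved less in the young pair than the calcium and potassium sums. Single cardiomyocyte markers moved both ways between young sham and young I/R. Ttn was at 31744 and 18615 CPM and Ryr2 at 2568 and 1494, while Fabp3 was at 2263 and 3016 and Csrp3 at 932 and 1357. The part of the markers in the members' ratios was not tested.

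Few barcodes carried clearly more markers of a class than their library's mean share predicts, so the source of a channel gene could be read only for well counted members. UMIs of a gene in such barcodes are given as a multiple of the number expected at the library means, with its interval. The 1013 barcodes rich in cardiomyocyte markers, 618 of them in aged I/R, held 1.89 times (1.74 to 2.04) the expected UMIs of Cacna1c. By library they held 107, 38, 64 and 410, where 43.3, 7.73, 25.7 and 251.3 were expected, so the multiple was highest in young I/R. Cacna1c had 107 of the 128260 UMIs of these barcodes in young sham and 38 of 51608 in young I/R. Its level in young I/R was thus closer to young sham there than over all barcodes, which was not tested. Over the 4 libraries the multiple was 1.89 times (1.33 to 2.62) for Kcnd3, 2.18 times (1.27 to 3.50) for Cacna1g and 1.54 times (1.13 to 2.07) for Kcnj2. Above the expected number there were also Kcna4, with 2.95 times (1.41 to 5.42), and Scn4a, with 2.69 times (1.34 to 4.82). With a looser tail probability of 0.001 for a rich barcode they had 1.70 (0.847 to 3.04) and 1.76 (0.962 to 2.95), with intervals that include 1, while Cacna1c, Kcnd3, Cacna1g and Kcnj2 stayed above it. Below it was Kcnk3, with 0.705 times (0.599 to 0.825). In barcodes rich in fibroblast markers Scn7a had 2.89 times (1.74 to 4.52), and in those rich in atrial markers Kcnj3 had 2.62 times (1.78 to 3.72), Kcnh2 2.13 times (1.26 to 3.36) and Scn7a 0.450 times (0.194 to 0.887). At the looser limit the atrial values of Kcnh2 and Scn7a were 1.495 (0.926 to 2.29) and 0.676 (0.413 to 1.04), both with 1 inside the interval, and that of Kcnj3 was 2.02 (1.44 to 2.75). Cacna1c was close to its expected number in barcodes rich in endothelial, macrophage or mural markers. Such a barcode is the upper end of a score and not a cell type, and most UMIs of the atrial list are those of Nppa.

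Genes that work with these channels were listed for this work and counted apart from the members. Of 39 gap junction, intercalated disc, modulator, pump and other cation channel genes that were tested, 17 were lower and 2 higher in young I/R on total UMIs, against 43.2% and 5.28% of all genes, and 10 lower and 10 higher after gene-wise scaling, against 23.7% and 15.5%. The 17 lower genes are 43.6% of the 39, close to the share of all genes. In the aged pair 2 were lower and 5 higher, against 8.04% and 14.7%. Gja1, the main ventricular gap junction gene, was at 294, 131, 233 and 260.2 CPM, lowest in young I/R as Cacna1c was, with a log2 ratio of -1.17 in the young pair.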

How the data were processed

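Left ventricles of 4 conditions were profiled with a 10x Genomics Chromium 3' kit. The deposited matrices hold unscaled counts of UMIs, 1 value per gene and barcode. The authors aligned reads to mm10 with Cell Ranger 6.0.2, per the labels' processing notes, and deposited its filtered output. Whether counting used the strand or intronic reads is not given in the sources used here. The authors' clusters and cell names were not used.

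UMIs were summed over all barcodes of a library and divided by its total (CPM). Intervals at the 95% level are exact Poisson for levels and exact conditional binomial for ratios, and an interval from summed reciprocal counts for differences of log2 ratios and for the change of a ratio. They cover counting error only, and no test was made with 1 library per condition. Genes needed 50 UMIs over the 4 libraries. Shares over all 15787 such genes stand beside member counts. Spans and overlaps came from GENCODE vM21 and promoters from RefSeq on GRCm38.p6. A barcode with at least 200 detected genes counted as rich in a marker class with at least 3 marker UMIs and a Poisson tail probability under 0.0001. No doublet caller was run, and barcodes rich in markers of a second class were left out, at most 1 per class and library (atrial and cardiomyocyte markers could share a barcode).

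Genes named are a cardiac channel set, the 3 highest and 3 lowest members with at least 200 UMIs per comparison, the 3 most counted per family, those near the limit, and the 2 most enriched per marker class, and some genes that meet this rule are not reported here. Scn3a, Scn2a, Scn10a, Cacna1s, Cacnb1, Cacna1a, Cacna1b, Kcnt2 and the genes named only for differences between the ages were chosen after their values were seen, and so were the within-library pairs and the span classes. The members and lists were chosen with earlier results of these data known. Alternatives were gene-wise scaling, a total without Gm42418, Malat1 and mitochondrial genes, barcodes with at least 200 detected genes, leaving out the most counted member, barcodes rich in cardiomyocyte markers, a limit of 200 UMIs, a 2-fold limit and a tail probability of 0.001. Calculations were tested on simulated data. The tools were matplotlib 3.10.9, numpy 2.4.6, pandas 2.3.3 and scipy 1.17.1 in Python 3.11.15.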

Additional observations from a re-analysis of the deposited data

Results flagged for a closer look

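Of the channel genes reported here, 9 had a log2 ratio of I/R over sham on opposite sides of 0 in young and aged mice, with both counting intervals excluding 0 on both scalings. The difference between the ages was not tested, since each condition is 1 library. All but 1 of the 9 were below sham in young I/R and above it in aged I/R. The share of all tested genes that meet this rule is not given here. On total UMIs the log2 ratio was higher in aged than in young mice for 73.7% of all tested genes, so this direction is not particular to the channel genes.

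The difference, given as the log2 ratio in aged mice minus that in young mice with its 95% counting interval, was 3.72 (3.41 to 4.03) for Kcnn2, 2.37 (2.09 to 2.66) for Cacna1a and 1.60 (1.27 to 1.93) for Cacna1d. For the inward rectifier pores Kcnj2 and Kcnj11 it was 1.44 (1.24 to 1.64) and 1.25 (1.13 to 1.37), and for the pacemaker gene Hcn4 1.47 (0.91 to 2.02).

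Genes with fewer than 200 UMIs are less precise. Kcnrg, whose product acts on Kv channel assembly, had 3.54 (2.48 to 4.59), at 2.17, 0.504, 0.411 and 1.11 CPM. Kcnh7, an ERG-type pore whose exons overlap those of Gca on the opposite strand, had 2.90 (1.55 to 4.26), at 0.968, 0.328, 0.266 and 0.674 CPM. Cacng2 was the exception in direction, with -2.79 (-4.17 to -1.40), at 0.348, 0.882, 0.653 and 0.240 CPM, above sham in young I/R and below it in aged I/R.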

How the results depend on the processing

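Counting intervals do not cover variation between mice or preparations, and young I/R stands apart over all genes, so the choice of scaling decides part of the comparisons in the young pair. The sums could not be resolved into cell types. No paired analysis was possible because each condition is 1 library. Values below are log2 ratios for the young pair, the aged pair, the sham comparison and the I/R comparison, in this order.

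Gene-wise scaling gave 0.16, 0.048, 0.033 and -0.078 for the sodium sum, with the sign turned in all but the aged pair, -0.37, 0.0092, -0.30 and 0.080 for the calcium sum, and -0.33, -0.13, -0.084 and 0.11 for the potassium sum, while the HCN sum in the young pair turned to 0.10. The difference of the I/R response between ages became -0.11 for the sodium, 0.38 for the calcium, 0.20 for the potassium and -0.49 for the HCN sum, from 0.41, 0.91, 0.72 and 0.03. Members counted higher were 9, 5 and 18 in the young, aged and I/R comparisons in place of 4, 8 and 43, and those lower were 31 and 7 in the young and I/R comparisons in place of 48 and 3.

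The total without Gm42418, Malat1 and mitochondrial genes gave -0.13, 0.050, -0.035 and 0.14 for sodium, -0.66, 0.011, -0.37 and 0.30 for calcium and -0.61, -0.13, -0.15 and 0.34 for potassium, and 5 members higher in the aged pair. Barcodes with at least 200 detected genes gave -0.37, 0.10, -0.23 and 0.25 for sodium, -1.06, 0.071, -0.71 and 0.42 for calcium and, without the aged pair, -0.85, -0.34 and 0.47 for potassium, with age differences of 0.48, 1.13 and 0.81.

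Without the most counted member sodium gave -1.01, -0.27 (turned), -0.048 and 0.68, potassium -0.92, 0.00065 (turned), -0.35 and 0.57, and calcium, without the aged pair, -0.55, -0.48 and 0.17, while HCN turned to 0.11 in the aged pair and 0.26 between the I/R libraries. In barcodes rich in cardiomyocyte markers sodium gave -0.59, -0.23 and 0.48 outside the aged pair, calcium -0.14, -0.49 (turned), -0.30 and -0.65 (turned), potassium -0.49, 0.14 (turned), -0.43 and 0.21, and HCN turned to 1.31 in the young pair and 1.35 between the sham libraries, from few UMIs.

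With a limit of 200 UMIs 3 members were higher in the aged pair and 1 lower between the I/R libraries. With a 2-fold limit 5 were higher and 5 lower in the aged pair, 5 higher and 6 lower between the sham libraries, and 18 higher in aged I/R than in young I/R. The cause of these differences was not tested. Of the 39 ratios in marker-rich barcodes, 38 stayed within their intervals at the tail probability of 0.001, although intervals for Kcna4 and Scn4a among cardiomyocyte markers and for Kcnh2, Kcnj5 and Scn7a among atrial markers then include 1.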
